A study of Mus musculus with 3 samples.

Results

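The genes described here are 10 transcription factor genes of epithelia: the grainyhead-like factors Grhl1, Grhl2 and Grhl3, the zinc finger factors Ovol1 and Ovol2, the ETS factors Elf3, Elf5 and Ehf, the CP2 factor Tfcp2l1 and the p53 relative Trp63. They were picked out by gene symbol, by a rule that uses no signal but was set with earlier results of these data known, and all 10 were measured, each by 1 probe set with a single symbol, among 19938 named genes. They were measured in sorted ureteric bud cells of CD-1 mouse embryos at 10.5 dpc that carried the transgene Tg(Hoxb7-EGFP)33Cos, in which a Hoxb7 promoter makes cells of the nephric duct and its outgrowths fluoresce green. The design has 1 group of 3 Affymetrix arrays, each from a single bud of an embryo of unknown sex, and therefore no comparison between conditions. What it allows is a test of each gene's signal against the background of its array, and a description of how the 3 buds differed.

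The ureteric bud is an epithelial tube that grows out of the nephric duct and branches into the collecting ducts. Grainyhead factors bind DNA at epithelial genes, and in mouse nephric duct and collecting duct Grhl2 acts on adhesion and tight junction genes such as Cdh1, Cldn4 and Rab25 and on the gene of its partner Ovol2. Ovol factors repress Zeb genes, whose products in turn repress epithelial genes through E-boxes, so that the families oppose each other in transitions between epithelium and mesenchyme. Elf3, Elf5 and Ehf are ETS factors confined largely to epithelia, Tfcp2l1 acts in the later collecting duct and in pluripotent stem cells, and Trp63 is the master regulator of basal layers of stratified epithelia.

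Grhl2 and Ovol2 lay furthest above background in the group. Grhl3 and Tfcp2l1 lay just above background, Elf3 was above it on every array without passing the test, and Grhl1, Ovol1, Elf5, Ehf and Trp63 were below it. The promoters of the members at or near background, and that of Ovol2, are printed here so that the E-boxes read by Zeb factors can be seen beside the levels that follow. The sequences are from RefSeq (build GRCm38.p6), and each run holds the 250 bases before the start site. Of the 10 members 6 had a promoter in the set used here, and Grhl2, Ovol1, Ehf and Trp63 had none. Capitals mark the letters CAGGTG or, on the other strand, CACCTG. Ovol2 (chr2:144331363-144331612, minus strand) held no match in these bases, Grhl3 (chr4:135573633-135573882, minus strand) and Elf3 (chr1:135258473-135258722, minus strand) held 1 each, and Tfcp2l1 (chr1:118627695-118627944, plus strand) held 2.
Ovol2: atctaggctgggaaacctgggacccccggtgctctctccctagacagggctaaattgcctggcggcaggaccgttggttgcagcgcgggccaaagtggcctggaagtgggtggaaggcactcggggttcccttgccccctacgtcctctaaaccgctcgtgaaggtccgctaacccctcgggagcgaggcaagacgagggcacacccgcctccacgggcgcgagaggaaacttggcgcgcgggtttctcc
Grhl3: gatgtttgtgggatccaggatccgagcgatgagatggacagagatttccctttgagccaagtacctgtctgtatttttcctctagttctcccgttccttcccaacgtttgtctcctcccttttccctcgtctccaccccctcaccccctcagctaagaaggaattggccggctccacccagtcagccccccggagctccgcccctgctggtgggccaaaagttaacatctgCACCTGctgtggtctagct
Tfcp2l1: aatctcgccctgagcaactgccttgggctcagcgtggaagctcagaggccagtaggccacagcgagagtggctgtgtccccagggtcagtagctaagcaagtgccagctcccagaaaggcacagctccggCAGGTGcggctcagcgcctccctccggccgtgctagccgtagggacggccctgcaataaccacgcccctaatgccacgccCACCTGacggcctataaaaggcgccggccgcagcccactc
Elf3: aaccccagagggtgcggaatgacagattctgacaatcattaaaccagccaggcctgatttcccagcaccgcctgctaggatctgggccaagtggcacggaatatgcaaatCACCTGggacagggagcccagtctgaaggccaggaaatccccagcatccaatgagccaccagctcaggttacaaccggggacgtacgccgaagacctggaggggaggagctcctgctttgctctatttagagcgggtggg

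Signals are deposited log2 values per probe set, and each array's background was set where 95% of the 1035 probe sets for olfactory receptors lay below it, at 5.40, 5.45 and 5.41 log2 on arrays 1, 2 and 3. A gene passed when limma put its mean above that level with a Benjamini-Hochberg adjusted p under 0.05 over all named genes. By this rule 4 of the 10 members passed, or 40%, beside 53% of all named genes (10567 of 19938). The median distance of the members from the background level was -0.13 log2, beside 0.22 log2 over all named genes. Of the members, 6 had a value identical on all 3 arrays and 4 had a value shared by exactly 2 arrays, within a tolerance of 2e-05 log2, and none had 3 distinct values. Over all named genes these shares were 51.7% with 1 value, 28.7% with 2 and 19.6% with 3. An SD of 0 in such a gene is a property of the deposited values and not a measured agreement of buds, and its adjusted p rests on the spread of the 3 background levels and the fitted prior.

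Among the grainyhead factors, Grhl2 had a signal of 7.87 log2 on each of the 3 arrays. This was 2.45 ± 0.02 log2 above background (SE from the limma fit, n = 3, limma adjusted p = 1.18e-06), and on each array 1 of the 1035 olfactory receptor probe sets reached it. Grhl3, which in mice acts in closure of the neural tube and in the skin barrier, was at 5.49 log2 on every array, 0.07 ± 0.02 log2 above background (limma adjusted p = 0.0361). Of the olfactory receptor probe sets, 44, 49 and 46 on arrays 1, 2 and 3 lay at or above Grhl3, so its signal was within the upper tail of genes that this tissue is taken not to use. The call of Grhl3 was lost without array 1 and without array 3 (limma adjusted p of 0.577 and 0.556), and when identical values were given an SD no less than the median of other genes (limma adjusted p = 0.282). Its distance was still 0.06 log2 without array 1 and 0.07 log2 without array 3. The p changed with the prior and background spread fitted anew to 2 arrays, and these losses do not mark a bud in which Grhl3 differed. Grhl1, a factor of skin and hair anchorage, was at 4.64 log2 on every array, with a mean distance from background of -0.78 log2 and with 187, 197 and 198 olfactory receptor probe sets at or above it.

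Of the Ovol factors, Ovol2, which is needed in mouse embryos for the heart, vessels and neural tube, had signals of 6.35, 6.35 and 6.42 log2 on arrays 1, 2 and 3. It was 0.95 ± 0.03 log2 above background (SE, n = 3, limma adjusted p = 2.73e-05), and 6 or 7 olfactory receptor probe sets reached it on each array. The exact value of Ovol2 was shared by 54, 57 and 0 other probe sets on arrays 1, 2 and 3, which limits what its level says of the transcript. Ovol1, its relative in skin and germ cells, had 5.08 log2 on every array, and 92, 98 and 102 olfactory receptor probe sets lay at or above that value. Its mean distance from background was -0.34 log2, and Ovol1 did not pass.

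None of the ETS factors passed. Elf3 had 6.00 log2 on array 1 and 5.56 log2 on both array 2 and array 3, which put it above the background level on each array, by 0.60, 0.11 and 0.16 log2. Its mean distance of 0.29 ± 0.12 log2 (SE, n = 3) did not pass (limma adjusted p = 0.0666). On array 1, 12 olfactory receptor probe sets lay at or above Elf3, and on arrays 2 and 3 there were 43 and 40. Without array 3, Elf3 passed (limma adjusted p = 0.00596), and it also passed with an SD floor for identical values (limma adjusted p = 0.0315). Its distance was 0.35 log2 without array 3. With the floor the distance of Elf3 stayed at 0.29 log2 and its own SD was unchanged, so that pass came from the fit of other genes. Elf5, a factor of mammary gland, placenta and later collecting duct, was at 5.00 log2 on every array and did not pass. Ehf had 4.13, 3.94 and 4.13 log2 on arrays 1, 2 and 3, the deepest of the members in the olfactory receptor range, with 354, 439 and 360 probe sets at or above it.

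Tfcp2l1 had 5.78 log2 on array 1 and 5.60 log2 on arrays 2 and 3. It was 0.24 ± 0.06 log2 above background (SE, n = 3, limma adjusted p = 0.0142), with 23, 42 and 38 olfactory receptor probe sets at or above it. This call was lost without array 1 (limma adjusted p = 0.181) and without array 2 (limma adjusted p = 0.0518), and array 1 was the array on which Elf3 was also high. The distance of Tfcp2l1 was 0.17 log2 without array 1 but 0.29 log2 without array 2, so the loss without array 2 was not a lower signal. Trp63 was at 4.71 log2 on every array, with a mean distance from background of -0.71 log2 and with 173 to 186 olfactory receptor probe sets at or above it.

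**Figure D1:**
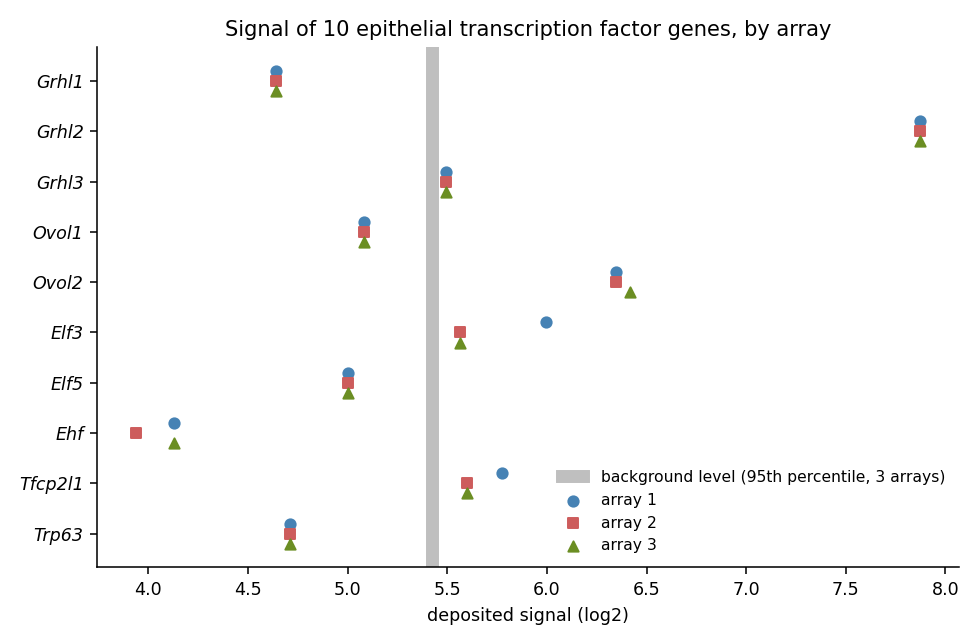
Deposited log2 signal of the 10 members on the x axis, by gene on the y axis, with 1 point for each of the 3 arrays, and a grey band spanning the 3 background levels of 5.40 to 5.45 log2. Grhl2 (7.87 log2) and Ovol2 (6.35 to 6.42 log2) lie clear of the band, Grhl3, Elf3 and Tfcp2l1 lie just above it and the other 5 members lie below it.

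The calls separated into stable and unstable ones when the background or the spread was set differently. Grhl2 passed in 13 of 13 alternatives and Ovol2 in 12 of 13, while Tfcp2l1 passed in 8, Grhl3 in 7, Elf3 in 6 and Ovol1 in 2. Grhl1, Elf5 and Trp63 passed in 0 of 13 and Ehf in 0 of the 12 that kept it. The alternative that Ovol2 did not pass took its background from genes of keratin-associated proteins and beta-defensins, at 6.82 to 6.91 log2, where 1 member and 21.1% of all named genes passed. At the 99th percentile of olfactory receptors 2 members passed, beside 35.3% of named genes. At the 90th percentile 6 members passed, beside 63.7%, and likewise 6 with a background from vomeronasal receptors, beside 65%. When probe sets in the lowest 25% of signal were dropped, 4 members passed, beside 65% of the genes kept. An SD floor for identical values gave 4 members and 51.1%, that for tied values 3 members and 47.8%, and the rule without a model 5 members and 54%. Without array 1 the members that passed were 2 beside 48.5%, without array 2 they were 3 beside 52.8% and without array 3 they were 4 beside 48.8%. Quantile normalization and the choice of the probe set with the highest mean left 4 members, beside 52.8% and 53.4%.

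**Figure D2:**
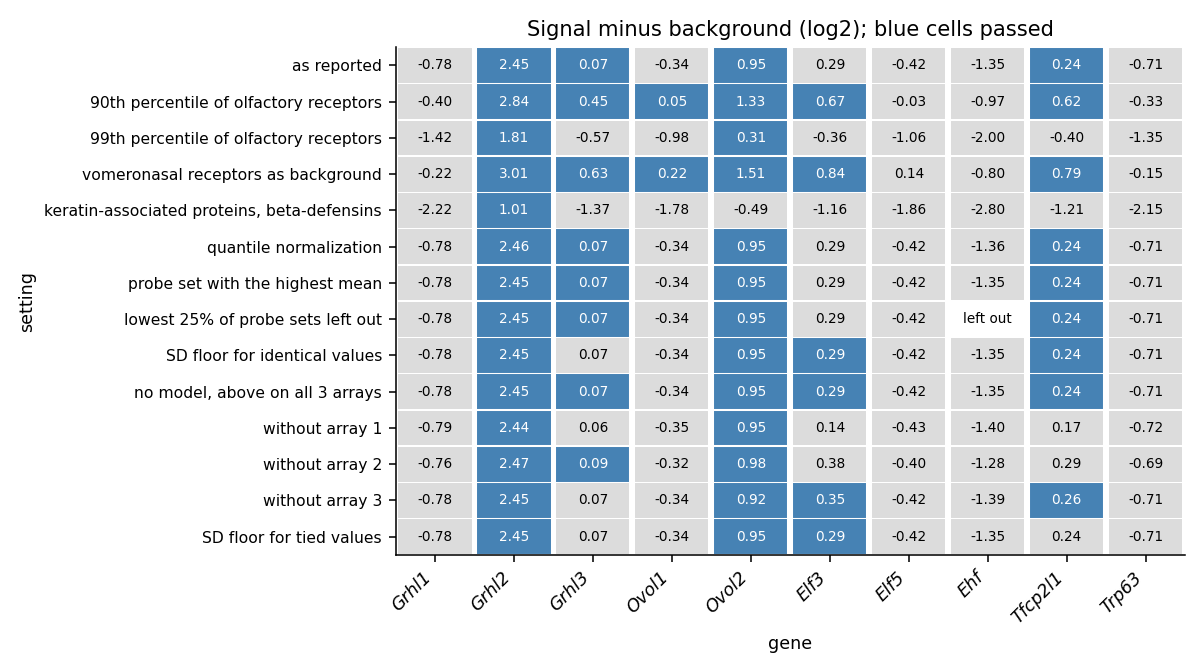
Mean signal minus background level (log2, printed in each cell) of each member (x axis) under the reported analysis and 13 alternatives (y axis), with blue cells where the gene passed and grey cells where it did not. Grhl2 passed in every row and Ovol2 in every row but that of keratin-associated proteins and beta-defensins, while Grhl3, Elf3 and Tfcp2l1 passed in some.

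Of the relatives of these factors 7 of 8 measured genes passed, beside 53% of all named genes, with a median distance from background of 0.64 log2. The broadly used CP2 factors Tfcp2 and Ubp1, which share the grainyhead fold, were at 6.60, 6.50 and 6.60 log2 and at 8.08 log2 on every array. Ovol3 had 5.79, 5.94 and 5.94 log2 and the ETS factor Spdef 6.03, 6.07 and 6.03 log2 on arrays 1, 2 and 3, and both passed (limma adjusted p of 0.000431 and 2.36e-05). The relative that did not pass was Trp73, at 5.10 log2 on every array. Elf1, named here after its values were seen, had 6.58 log2 on array 1, against 5.85 and 5.82 log2 on arrays 2 and 3, so like Elf3 it was high on array 1. At the 99th percentile of the olfactory receptors 2 relatives passed, where 35.3% of all named genes did.

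Epithelial genes downstream of Grhl2 and the Ovol factors, or expressed with them, were above background in 22 of 23 measured genes (95.7%, beside 53% of all named genes). Their median distance from background was 1.71 log2, beside 0.22 log2 over all named genes. Of the genes known to depend on Grhl2 in the duct, E-cadherin (Cdh1) was at 7.80, 7.56 and 7.51 log2 on arrays 1, 2 and 3. The tight junction gene Cldn4 had 7.25 log2 on array 1 and 7.13 log2 on arrays 2 and 3. Rab25, a small GTPase of apical vesicle traffic, had 7.95 log2 on array 1 and 6.54 log2 on arrays 2 and 3, and differed more between arrays than any other gene of this list. Its value on arrays 2 and 3 was, to 5 decimals, also that of Prss8, so this range may not be a measured difference of buds. Cdh1, Cldn4 and Rab25 all passed (limma adjusted p of 3.07e-05, 1.05e-05 and 0.0125) and were highest on array 1.

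The adhesion gene Epcam was at 9.27 log2 on every array, Ap1m2, a subunit of an adaptor for basolateral sorting, at 6.67 log2, and Lsr, which builds junctions where 3 cells meet, at 7.03 log2. The splicing regulator Esrp1 had 9.81, 9.38 and 8.99 log2 on arrays 1, 2 and 3, and its relative Esrp2 5.82 log2 on every array, and both passed. The membrane protease St14 had 7.25 log2 and Prss8 6.54 log2 on every array, and their inhibitor Spint1 7.21, 7.15 and 7.03 log2 on arrays 1, 2 and 3. Krt19, at 5.54 log2 on array 1 and 5.42 log2 on arrays 2 and 3, was the gene of this list that did not pass (limma adjusted p = 0.335).

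Many of these epithelial genes held the Zeb E-box near their start. Of 15 genes of the list with a RefSeq promoter (250 bases before to 50 after the start), 14 held CAGGTG on either strand (93.3%), beside 22.2% of the named genes on the arrays (3465 of 15614). Of the members 4 of 6 held it, namely Grhl3, Elf3, Elf5 and Tfcp2l1, and of the bud markers 3 of 8. The same letters stood in 4 of 8 later collecting duct genes, 3 of 9 relatives and 1 of 6 genes that oppose the epithelial state. Promoters of the epithelial genes had a median of 61.0% G and C and those of the members 61.2%, beside 57.5% over the named genes on the arrays, and the part of base composition in these shares was not tested. The ETS letters CCGGAAGT stood in 4 of the 15 epithelial promoters, those of Spint1, Lsr, Cldn7 and Crb3, and in 0 of 6 members, beside 6.01% of named genes. The grainyhead letters AACCGGTT, which read the same on both strands, were in none of these 15 or of the 6 members and in 0.199% of named genes. The Ovol letters CCGTTA were in Crb3 alone of the 15 and in none of the 6 members, beside 3.59% of named genes. None of these 4 motifs contains another, all were searched on both strands, and a match is a run of letters and not a measured binding site.

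The last 100 bases before the start are shown for the first 4 epithelial genes in list order with an E-box there, with capitals as before. They are Cldn4 (chr5:134946935-134947034, minus strand), Rab25 (chr3:88548280-88548379, minus strand), Epcam (chr17:87635879-87635978, plus strand) and Ap1m2 (chr9:21312334-21312433, minus strand), of which Ap1m2 held 4 matches, Rab25 2 and the others 1 each.
Cldn4: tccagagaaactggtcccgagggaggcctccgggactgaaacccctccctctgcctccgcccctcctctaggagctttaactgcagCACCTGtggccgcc
Rab25: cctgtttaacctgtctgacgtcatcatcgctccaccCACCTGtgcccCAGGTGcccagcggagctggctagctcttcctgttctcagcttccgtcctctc
Epcam: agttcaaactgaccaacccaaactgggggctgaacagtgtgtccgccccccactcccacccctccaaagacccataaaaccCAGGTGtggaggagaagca
Ap1m2: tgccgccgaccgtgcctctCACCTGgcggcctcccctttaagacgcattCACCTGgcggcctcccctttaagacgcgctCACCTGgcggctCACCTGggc

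The factors that oppose the epithelial state, with mesenchymal genes they are known for, were above background in 7 of 12 genes, beside 53% of all named genes, with a median distance of 0.59 log2. The E-box binding repressor Zeb2 was at 5.14 log2 on every array and did not pass, nor did Snai2 at 4.94 log2. Zeb1 had 5.14 log2 on arrays 1 and 2, exactly the value of Zeb2, and 6.31 log2 on array 3. Its mean distance of 0.11 ± 0.29 log2 (SE, n = 3) did not pass (limma adjusted p = 0.652). Snai1, at 6.35, 6.35 and 6.58 log2 on arrays 1, 2 and 3, and Twist1, at 5.82 log2 on every array, did pass. The homeobox gene Prrx1 (6.93, 6.74 and 6.59 log2) and N-cadherin (Cdh2; 6.90, 6.49 and 6.42 log2) were above background and highest on array 1. Vimentin (Vim), an intermediate filament of mesenchyme and endothelium, had 8.47, 7.97 and 9.82 log2 on arrays 1, 2 and 3, and fibronectin (Fn1) 8.96 log2 on array 1 and 8.53 log2 on arrays 2 and 3. Twist2 and Foxc2 did not pass.

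**Figure D3:**
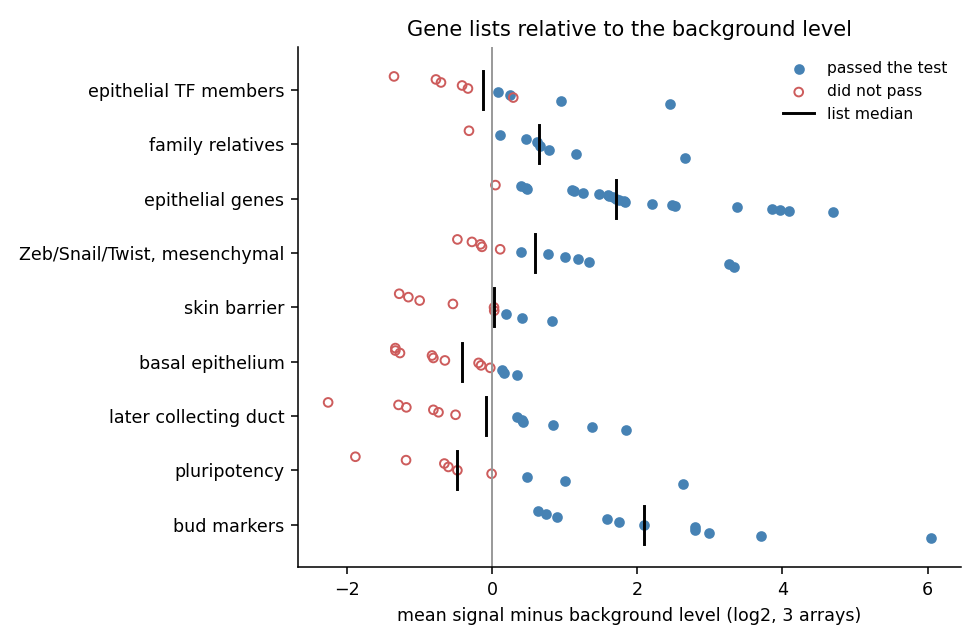
Mean signal minus the background level (x axis, log2, 3 arrays) of every measured gene of 9 lists (y axis), with filled points for genes that passed, open points for genes that did not and a black bar at the list median. The epithelial genes (median 1.71 log2) and bud markers (2.09 log2) lie to the right of 0, while the transcription factor members (-0.13 log2) span it.

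Genes of the programmes that the other members serve elsewhere gave mixed calls. Of 12 genes of basal and surface epithelium, which Trp63 governs in skin, 3 passed (25%, beside 53% of all named genes), namely Perp, Itgb4 and Jag2, at 5.56, 5.76 and 5.58 log2 on every array. The basal keratins Krt5 (4.61 log2), Krt14 (5.23 log2) and Krt15 (5.23 to 5.28 log2) and the desmosomal gene Dsg3 (4.15 log2) did not. Skin barrier genes, where Grhl1 and Grhl3 act, passed in 3 of 9 (33.3%, beside the same 53%), namely Arhgef19, Evpl and Sprr1a. Tgm1, the cross-linking enzyme controlled by Grhl3 in skin, had 5.39 log2 on arrays 1 and 2 and 5.56 log2 on array 3 and did not pass (limma adjusted p = 0.556).

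Later collecting duct genes, where Tfcp2l1 and Elf5 act, passed in 6 of 12, and this 50% was close to the 53% of all named genes. The Notch ligand Jag1, which acts with Tfcp2l1 in patterning collecting duct cells of mice, was at 7.28, 7.24 and 7.28 log2 on arrays 1, 2 and 3. The water channel genes Aqp2 (6.26 log2 on every array) and Aqp3 (5.71, 5.85 and 5.71 log2) and the vasopressin receptor gene Avpr2 (5.79, 5.97 and 5.79 log2) passed too. The intercalated cell genes Atp6v1b1 and Foxi1, named here after their values were seen, did not, at 4.78 to 4.98 and 4.68 log2. Atp6v0d2 and Slc26a4 did not pass either. Slc4a1, which is also on the erythroid list, did pass, at 5.83 log2 on every array. Of 9 pluripotency genes, a network that holds Tfcp2l1 in mouse stem cells, 3 passed (33.3%, beside 53% of all named genes), namely Klf2 (5.90 log2), Klf5 (6.42 log2) and Tbx3 (8.05 log2), each identical on the 3 arrays. Pou5f1 (4.66 to 5.07 log2), Nanog (4.94 log2), Sox2 (4.18 to 4.26 log2) and Esrrb (4.76 log2) did not.

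Of the measured bud markers 11 of 11 passed, beside 53% of all named genes. Among them were Ret (8.69, 8.35 and 8.18 log2 on arrays 1, 2 and 3) and Gfra1 (8.58, 8.22 and 7.85 log2). This list was chosen with earlier results of these data known, and it holds Hoxb7, whose promoter drives the transgene. It is therefore no independent check of the labelled cell type. Of the listed genes of the surrounding mesenchyme 0 of 8 passed. Mesenchymal genes on the list of opposing genes did pass, among them Prrx1 and Cdh11 (6.20, 6.17 and 6.20 log2 on arrays 1, 2 and 3). Endothelial genes passed in 5 of 8 (62.5%) and erythroid genes in 3 of 5 (60%), shares near the 53% of all named genes. A gene that differs between buds can fail this test in spite of a high mean. The lowest endothelial distance from background was 0.36 log2 and the median 0.89 log2, beside 0.22 log2 over all named genes. Hbb-y had 8.86, 5.48 and 8.52 log2 on arrays 1, 2 and 3 and did not pass, at a mean distance of 2.20 log2. Hbb-bh1 did not pass either, at -0.06 log2. Genes of the cloaca and gut, another epithelium, passed in 3 of 6 (50%), namely Cdx1 (6.50 log2), Shh (5.54 log2) and Hnf4a (5.56 log2), each identical on the 3 arrays. Of 4 leukocyte genes Cd68 passed, at 6.26, 6.24 and 6.43 log2 on arrays 1, 2 and 3. The part of these cell types in the levels of the members was not tested. In sorted bulk cells, fewer cells of a type and less RNA per cell cannot be told apart.

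Among genes that differed between arrays, array 1 was high for part of the epithelial programme and array 3 for part of the opposing one. Of the 23 measured epithelial genes 9 were identical on all 3 arrays and 10 had a single highest array. Of the epithelial genes with a single highest array, 10 of 10 had it on array 1, beside 33.5% of all named genes with a single highest array (2444 of 7292), and 8 of 10 bud markers had it there too. Array 2 was the single highest for none of the members, the epithelial genes or the opposing genes, beside 34.9% of named genes. Among the members, Elf3 and Tfcp2l1 were highest on array 1 and Ovol2 on array 3, and the range of Elf3 between arrays, 0.43 log2, was exceeded by 21.3% of the named genes that were not identical on all arrays. The ranges of Ehf (0.19 log2) and Tfcp2l1 (0.18 log2) were close to the median of those genes, 0.18 log2, and that of Ovol2 (0.07 log2) was under it.

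Of the opposing genes 5 of 8 with a single highest array had it on array 3 (beside 31.6% of named genes), namely Zeb1, Snai1, Twist2, Foxc2 and Vim. The other 3, Prrx1, Cdh2 and Fn1, had it on array 1. Of the genes highest on array 3, Twist2 (5.19, 5.19 and 5.39 log2 on arrays 1, 2 and 3) was below background on every array. Foxc2 had a mean distance from background of -0.14 log2, so the array 3 values of Twist2 and Foxc2 say little of their transcripts. Endothelial genes were highest on array 3 in 7 of 8 and their summed linear signal was 1082, 475 and 1663 on arrays 1, 2 and 3. The summed signal of erythroid genes was 904, 231 and 681 on these arrays, that of epithelial genes 7163, 5441 and 5315, and that of the members 614, 589 and 596. Such a sum gives most weight to the gene of highest signal. This gene was Krt8 among the epithelial genes (10.77, 9.67 and 9.90 log2 on arrays 1, 2 and 3) and Grhl2 among the members (7.87 log2 on every array). The part of endothelial or blood cells in the array 3 values of Zeb1 and Vim was not tested. Each array is 1 bud with no repeat, so these differences have no replicate error. After quantile normalization the highest array was unchanged for the 10 epithelial genes, the 8 opposing genes and the 3 members. It was also unchanged for 9 of 10 bud markers and for 6427 of the 7292 named genes with a single highest array.

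**Figure D4:**
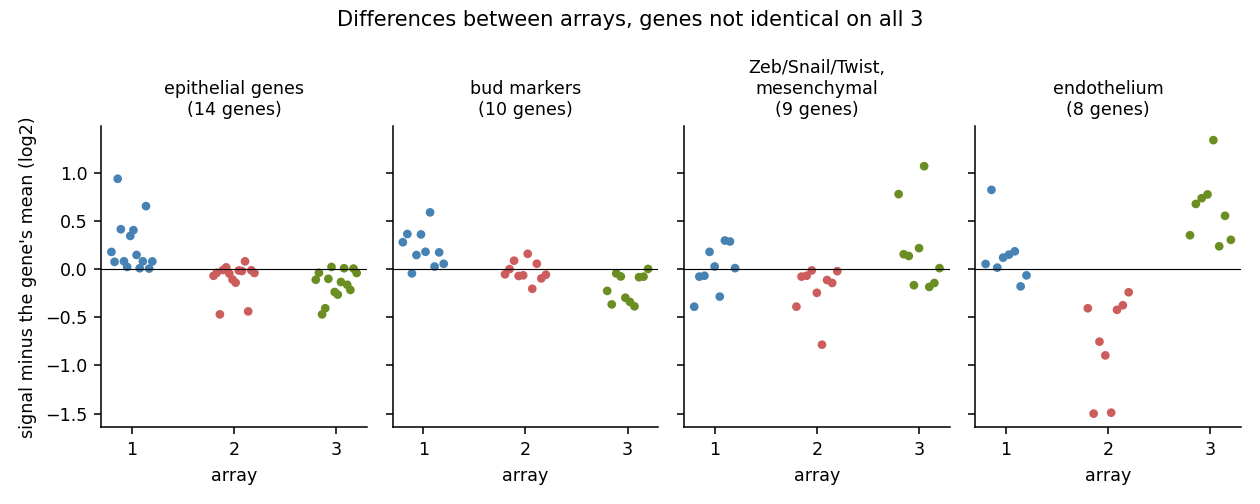
Signal on each array minus the gene's mean over 3 arrays (y axis, log2) by array (x axis), for the genes of 4 lists that were not identical on all 3 arrays, with 1 point per gene and array. Of the epithelial genes with a single highest array 10 of 10 have it on array 1, and of the endothelial genes 7 of 8 have it on array 3.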

How the data were processed

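The authors deposited log2 signals, summarised to probe sets, for which the submitters' processing notes name Affymetrix Expression Console. The log base was inferred from the range of the values. Background correction, normalization and probe summary: not given in the sources used here. RNA was amplified in 1 round, per the labels. The replicate numbers are those of the sample titles. Array medians were 5.47, 5.50 and 5.48 log2, and the columns were used as deposited. Having 3 arrays limits the precision.

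Of 35557 probe sets, 21789 had 1 gene symbol in the platform annotation, 1621 several and 12147 none listed; the first were averaged per gene (19938 genes). For all 10 members the gene ID matched RefSeq. The test was limma 3.58.1 in R 4.3.3, one-sided on the distance from the array's background, with a prior of 1.71 degrees of freedom; p-values compare arrays of single buds and not repeats of a bud. It was tested on simulated data. Those data held no tied values and no true distances as small as those of Grhl3, Tfcp2l1 and Elf3, so they do not cover such genes. Of the genes of the lists, 5 had no probe set with a single symbol and are not analysed here.

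Alternatives were the 90th and 99th percentile, a background from vomeronasal receptors or from keratin-associated proteins and beta-defensins, quantile normalization, the probe set with the highest mean, the lowest 25% of probe sets left out, an SD floor for identical values, a rule without a model, each array left out, and, added after seeing the data, an SD floor for tied values. Named genes were all members, the first 4 of every other list, and all genes on the smaller side of a call where these were 5 or fewer; every epithelial and opposing gene could be named. Members and lists were chosen with earlier results of these data known. The tolerance for tied values was set after seeing that the file has 5 decimals.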

Additional observations from a re-analysis of the deposited data

How the results depend on the processing

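The count of members that passed was 4 in the reported analysis. It fell to 2 at the 99th percentile of olfactory receptors and to 1 with a background from keratin-associated proteins and beta-defensins, was 2 to 4 with 1 array left out (2 without array 1), and was 3 with the SD floor for tied values. At the 99th percentile all named genes gave 7034, relatives 2, barrier genes 1, basal genes 0 and later duct genes 2. From keratin-associated proteins and beta-defensins all named genes gave 4210, relatives 1, epithelial genes 13, opposing genes 2, barrier and basal genes 0 each, later duct and pluripotency genes 1 each and bud markers 6. Barrier and basal genes gave 5 and 6 with vomeronasal receptors as well as at the 90th percentile, and with the vomeronasal level opposing genes gave 11. Basal genes gave 1 to 3 with 1 array left out, 1 of them without array 1 and 1 without array 3. All other counts stayed within 1.5 times. The distance from background changed sign for Ovol1 (0.046 log2 for the 90th percentile and 0.22 log2 for vomeronasal receptors), Elf5 (0.14 log2 with vomeronasal receptors), Grhl3 (-0.57 and -1.37 log2), Elf3 (-0.36 and -1.16 log2) and Tfcp2l1 (-0.40 and -1.21 log2), the paired values being those of the 99th percentile and of keratin-associated proteins and beta-defensins, and for Ovol2 (-0.49 log2 with the latter). These signs follow from the level set. Of the 129 member calls recomputed, 106 kept their direction and side of the threshold. Ehf was left out by the filter on the lowest 25%. No paired analysis was possible because the series has 1 group.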

Other observations

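Different probe sets often held exactly the same value on an array, to the 5 decimals of the file. On arrays 1, 2 and 3, 52.6%, 50.9% and 52.5% of the 35557 probe sets shared their value with another, and the most frequent value was held by 216, 238 and 224 probe sets. The value of Tfcp2l1 was shared by 100, 118 and 119 other probe sets on arrays 1, 2 and 3, that of Ovol1 by 78, 68 and 91, and that of Ovol2 by 54, 57 and 0. Grhl2 shared its value with 6, 2 and 7 others. Ovol2 and Snai1 had the same value of 6.35 log2 on arrays 1 and 2. Zeb1 and Zeb2 had the same value of 5.14 log2 on arrays 1 and 2, as had Rab25 and Prss8 at 6.54 log2 on arrays 2 and 3.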
